A study of Nothobranchius furzeri with 8 samples.

Results

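The family mir-181 was the most abundant miRNA family in small RNA libraries of the killifish brain. It is 1 of 324 features of a table of counts, made up of 235 families with a name and 89 predicted miRNAs, and it was chosen by its mean share of counts over all 8 libraries, the highest of any feature. Its high level is therefore a description and was not tested, whereas its difference between ages was not used in the choice. All 8 libraries were made from brain RNA of males of the strain MZM-04/10p of Nothobranchius furzeri, the turquoise killifish, an annual fish with a short life, with 4 libraries at 26 weeks of age and 4 at 6 weeks. No treatment or genetic change is given for either group. The older libraries have 22 in their titles and 26 weeks as their age label, which was followed here. The labels do not say that each library came from a separate fish, so a p-value here reflects only how these samples spread, and part of that spread may be technical.

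A miRNA guides Argonaute proteins to partly complementary sites in messenger RNAs, which are then translated less or degraded, and the seed, a short stretch near the miRNA's 5′ end, largely decides which sites are bound. In vertebrates the miR-181 family has several paralogues that share their seed. In mammals it is known in lymphocytes, where it tunes the sensitivity of the T cell receptor, and in neurons and astrocytes, where it represses the GluA2 subunit of AMPA glutamate receptors and members of the Bcl-2 family of cell death regulators. In medaka, another small fish, it takes part in the growth of retinal axons. The table gave 1 row for the whole family, so paralogues and arms could not be told apart. Values of bulk brain RNA also cannot tell fewer cells of a type from less RNA per cell.

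The libraries at 26 weeks held 3347810 to 5715409 counts, and those at 6 weeks held 2992917 to 4151620. Brain markers were well represented: the 9 features of the neuronal marker list summed to between 183918 and 200175 CPM (counts divided by the scaled library size, in the usual unit) at 26 weeks and between 171478 and 190188 CPM at 6 weeks. Markers of other tissues were scarcer. The muscle list summed to at most 1604 CPM at 26 weeks and 1319 CPM at 6 weeks, and the liver list to at most 202 CPM at 26 weeks and 120.0 CPM at 6 weeks. Other lists were higher than these. The eye and ear list reached 5165 CPM at 26 weeks and 5479 CPM at 6 weeks, and the pituitary list 2250 and 1635 CPM. The list of choroid plexus and pigment epithelium, mir-204 alone, reached 8815 CPM at 26 weeks and 6305 CPM at 6 weeks. All listed markers that the table holds had counts, and mir-206 and mir-211 were not analysed here. Libraries I to IV are numbered as in the titles.

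The row mir-181 ranked first in each of the 8 libraries. It received 820980, 1553606, 1382462 and 1009657 counts in libraries I to IV at 26 weeks, against 879419, 949163, 1107856 and 978738 counts in libraries I to IV at 6 weeks. As shares of all counts these were 24.5%, 27.2%, 25.8% and 22.2% at 26 weeks, against 29.4%, 29.2%, 26.7% and 31.7% at 6 weeks. The highest share at 26 weeks, in library II, lay above the lowest at 6 weeks, in library III, so the ages overlapped by that pair of libraries alone. Counting error was small beside this spread. The exact (Clopper-Pearson) 95% interval of library II at 26 weeks ran from 27.1% to 27.2%, and that of library III at 6 weeks from 26.6% to 26.7%. Such intervals cover counting error only, since reads amplified without molecular identifiers are not independent molecules.

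Averaged by age, the share of mir-181 was 24.9 ± 2.11% in the 26-week libraries and 29.2 ± 2.03% in the 6-week ones (SD, n = 4 each). The difference was -4.29 percentage points, and it did not pass an exact two-sided permutation test of 4 against 4 libraries (p = 0.0571, where the smallest p this design can give is 0.0286). A pairing by the numbers I to IV of the titles was inferred from these same data. Between libraries of the same number the difference was -4.86, -1.999, -0.88 and -9.43 points for I to IV, lower at 26 weeks in 4 of 4 pairs (exact sign-flip p = 0.125, the smallest that 4 pairs can give). The largest difference, in pair IV, joined the lowest share at 26 weeks to the highest at 6 weeks.

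As a part of the whole profile, mir-181 had the largest negative difference in mean share of any feature. Over the 232 features with a lower mean share at 26 weeks the differences summed to -10.8 percentage points, of which mir-181 made up 39.6%. The next largest were mir-128, a family enriched in neurons, at -1.54 points, and mir-9, which acts in neurogenesis, at -0.79 points. The 83 features with a higher mean share were led by let-7, known for its role in the timing of development, at 4.06 points. The family mir-26 followed at 1.63 points and mir-338, a family of oligodendrocytes, at 1.02 points. Shares of 1 library sum to a fixed total, so these differences are not independent of each other, and those of the other families were not tested here. A difference in points also grows with the share itself, by which mir-181 was chosen, so its first place largely follows from that choice. By edgeR with total counts alone, the log2 change was -0.23 for mir-181, and the median over all tested features was -0.29.

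**Figure D1:**
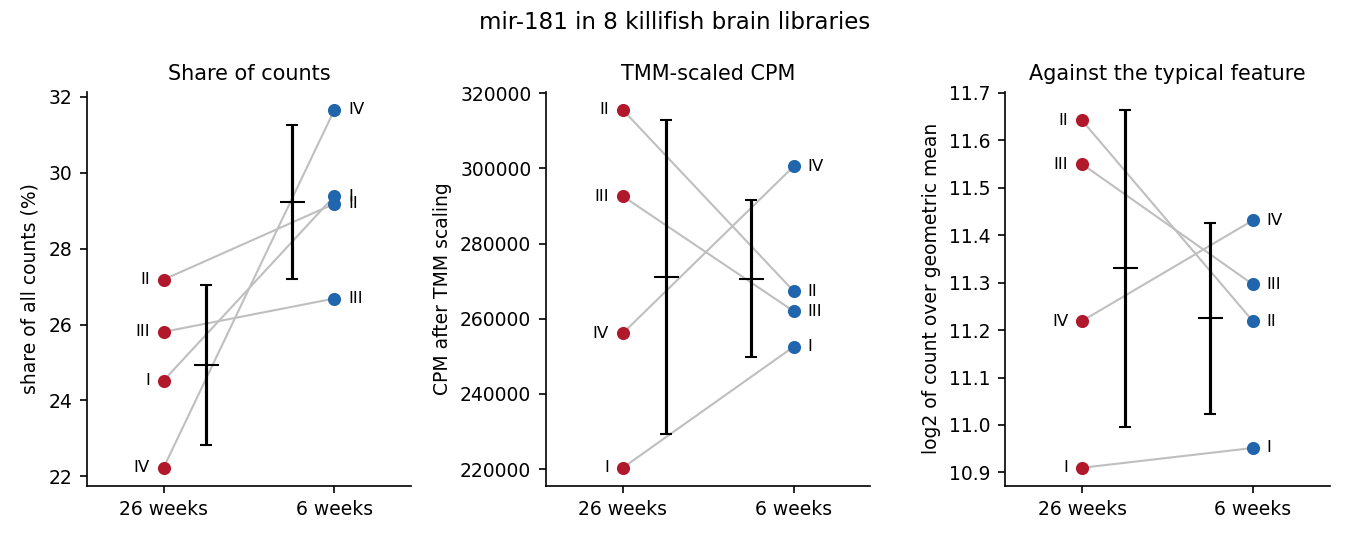
mir-181 in each library as a share of all counts (%), as CPM after TMM scaling, and as the log2 of its count over the geometric mean of all tested features. Points are libraries I to IV at 26 weeks (left of each panel) and 6 weeks (right), grey lines join libraries of the same number, and black marks are mean ± SD (n = 4 each). The share averaged 24.9% at 26 weeks and 29.2% at 6 weeks, whereas in both other panels the ages overlap widely.

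The count model, which scales each library before it compares the ages, gave a different picture from the share. With TMM scaling (factors that assume most features keep their level), mir-181 had 220342, 315541, 292583 and 256114 CPM in libraries I to IV at 26 weeks, against 252531, 267340, 262006 and 300511 CPM at 6 weeks. The 26-week libraries lay on both sides of the 6-week ones, with library I the lowest of all 8 and library II the highest. The means were 271145 ± 41783 CPM at 26 weeks and 270597 ± 20862 CPM at 6 weeks (SD, n = 4 each). By edgeR's quasi-likelihood test on all 212 tested features the log2 change, 26 weeks over 6 weeks, was 0.00 ± 0.12 (SE, Benjamini-Hochberg adjusted p = 0.986). In that test 30 features were called at an adjusted p under 0.05, which is 14.2% of those tested, and mir-181 was not among them. Without the 26-week library I, 47 were called, and mir-181 was at 0.09 ± 0.09 (edgeR, Benjamini-Hochberg adjusted p = 0.509). In TMM-scaled CPM, 46 of the features tested, or 21.7%, had 26-week libraries all above or all below the 6-week ones, and mir-181 was again not among them. With the number of the library as a block 59 features were called (27.8%), and mir-181 was at -0.01 ± 0.11 (edgeR, Benjamini-Hochberg adjusted p = 0.970).

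The log2 change of mir-181 depended on the scaling. With total counts alone its log2 change was -0.23 ± 0.08 (edgeR, SE, Benjamini-Hochberg adjusted p = 0.0717), and with upper-quartile factors it was -0.16 ± 0.16 (adjusted p = 0.479). The median over all tested features shifted too: it was -0.06 with TMM, -0.29 with total counts alone and -0.24 with upper-quartile factors. Relative to that median, mir-181 was at 0.06 with TMM, 0.06 with total counts, 0.07 with upper-quartile and 0.07 with RLE factors. TMM factors averaged above 1 at 6 weeks, where they ran from 1.02 to 1.16, whereas libraries II to IV at 26 weeks had 0.861, 0.882 and 0.868 and library I had 1.11. TMM leaves the most abundant features out of the computation of its factors, and mir-181 was left out in each library that was scaled to the chosen one.

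**Figure D2:**
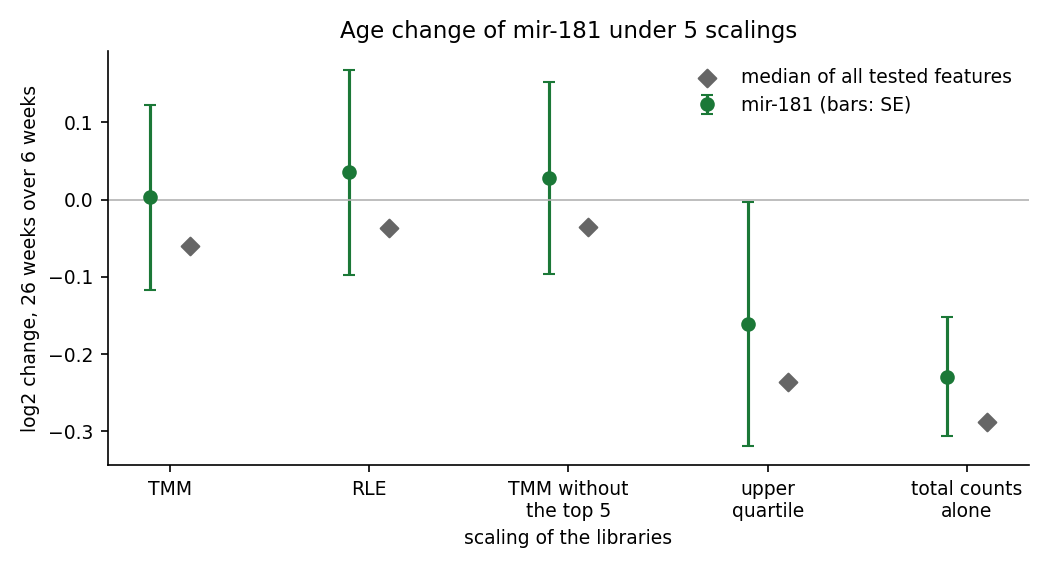
Log2 change of mir-181 (circles, bars are SE) and the median over all 212 tested features (diamonds), each 26 weeks over 6 weeks, under 5 ways of scaling the 8 libraries in edgeR. A change of scaling shifts all features nearly alike, so the 2 values must move together. mir-181 is at 0.00 with TMM and -0.23 with total counts alone, and the median is at -0.06 and -0.29.

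Because mir-181 holds a large part of every library, its share and that of the rest are tied. The features other than mir-181 together held 75.1% of a library on average at 26 weeks and 70.8% at 6 weeks, a difference of 0.08 on the log2 scale. From shares alone a fall of mir-181 cannot be told apart from a rise of other features. With mir-181 taken out of the table, total counts alone called 14 features higher and 18 lower at 26 weeks, against 15 higher and 12 lower with mir-181 kept (12.7% of those tested). The median log2 change was -0.38 without mir-181 and -0.29 with it. With TMM factors, taking out mir-181 gave 26 features higher and 8 lower, against 22 and 8 with it kept, and 30 of the 30 calls were shared. The share of let-7 among counts other than mir-181 was 24.3 ± 3.68% in the 26-week libraries and 20.04 ± 2.61% in the 6-week ones (SD, n = 4 each).

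A measure free of scaling factors sets mir-181 against the typical feature, as its count over the geometric mean of the counts of all 212 tested features. This ratio was 1924, 3196, 2999 and 2384 in libraries I to IV at 26 weeks, against 1980, 2384, 2515 and 2762 at 6 weeks. Library I was the lowest at both ages, and it also had the fewest counts at both. On the log2 scale the mean was 11.33 ± 0.33 in the 26-week libraries and 11.22 ± 0.20 in the 6-week ones (SD, n = 4 each). The difference of 0.11 did not pass an exact permutation test (p = 0.6), and it was lower at 26 weeks in 2 of 4 pairs. Against the geometric mean of the 50 most abundant features alone the difference turned to -0.22 (exact permutation p = 0.0857). With log2 total counts as covariate, an alternative added once the data had been seen, it was -0.26. Totals were higher on average at 26 weeks, so the part of depth in this measure cannot be told apart from that of age.

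The 10 most abundant families ordered the profile in which mir-181 stood first. Ligation and amplification favour some small RNAs over others, so levels of different families are less comparable than those of 1 family across libraries. On average over the 8 libraries mir-181 accounted for 27.1% of all counts, followed by let-7 at 16.2%, mir-9 at 7.09%, mir-26 at 6.44%, mir-128 at 5.91% and mir-221 at 3.801%. The family lin-4, the name that covers miR-125, took 2.67%, mir-10 2.30%, mir-724 2.22% and mir-22 1.89%. The row let-7 came second in each of the 8 libraries, and the ranges of mir-181 and let-7 did not meet at either age: mir-181 held 22.2% to 27.2% at 26 weeks, where let-7 held 14.9% to 20.9%, and 26.7% to 31.7% at 6 weeks, where let-7 held 12.4% to 17.4%. Below them the order was less clear, since the ranges of mir-9 and mir-26 overlapped at 26 weeks (5.23% to 8.75% for mir-9 and 7.08% to 7.76% for mir-26), as did those of mir-9 and mir-128 (4.43% to 6.49%). At 6 weeks mir-9, at 6.99% to 8.29%, lay just above mir-128, at 6.09% to 6.97%. Next after let-7 came mir-26 in libraries II, III and IV at 26 weeks and mir-9 in the other 5 libraries.

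**Figure D3:**
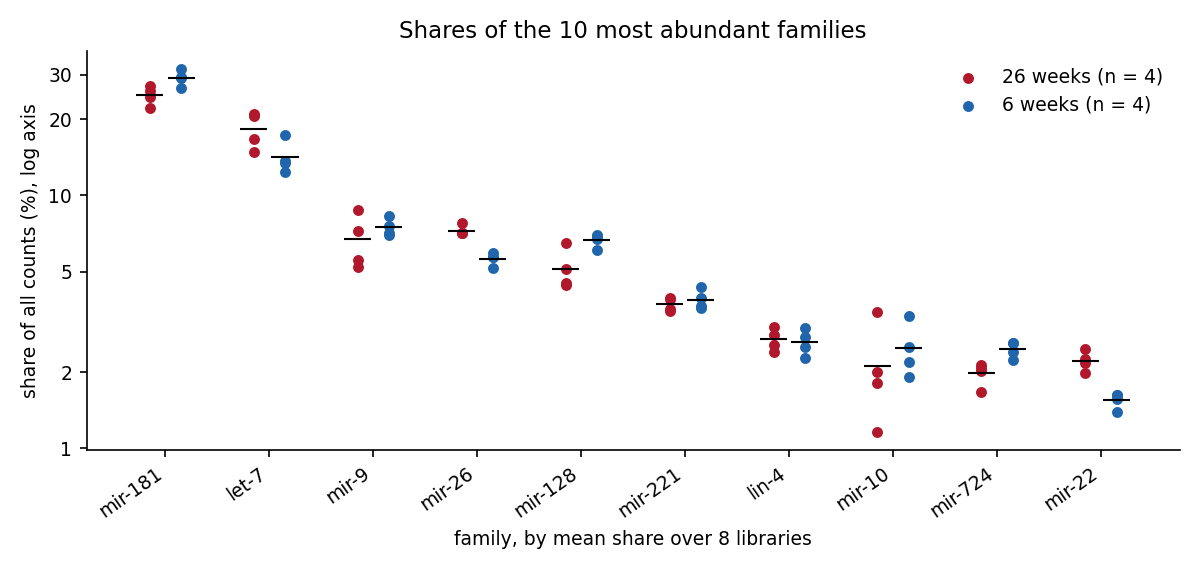
Share of all counts (%, log axis) of the 10 most abundant families, with 26-week libraries left and 6-week libraries right in each pair and black lines at the means (n = 4 each). mir-181 lies above let-7 in every library, with means of 24.9% for mir-181 and 18.3% for let-7 at 26 weeks, and of 29.2% and 14.2% at 6 weeks.

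The ratio of mir-181 to let-7 described its lead over the second family. The count of mir-181 was 1.65, 1.62, 1.26 and 1.06 times that of let-7 in libraries I to IV at 26 weeks, against 2.37, 2.14, 1.54 and 2.35 times at 6 weeks. In library IV at 26 weeks the families were nearly level, and the only 6-week library within the 26-week range was library III. The mean ratio was 1.40 ± 0.285 in the 26-week libraries and 2.10 ± 0.391 in the 6-week ones (SD, n = 4 each). On the log2 scale the difference was -0.59, lower at 26 weeks in 4 of 4 pairs (exact permutation p = 0.0857, adjusted p = 0.193 by Benjamini-Hochberg over the 9 ratios compared).

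A ratio of counts from 1 library is free of scaling, and 9 such ratios, of mir-181 to each of the other abundant families, were compared between ages. By exact permutation tests with Benjamini-Hochberg adjustment over the 9, 0 passed (0.00%), and 2 had an unadjusted p under 0.05. The smallest p this design allows is 0.0286, so at least 6 of the 9 ratios would have had to reach it for any to pass, and the count of 0 says little. These 2 were the ratios to mir-22 and mir-26, whose libraries did not overlap between ages. Over all 211 other tested features the ratio to mir-181 did not overlap between ages for 41, or 19.4%.

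The ratio to mir-22, a family found in many tissues, was 11.3, 11.04, 11.4 and 11.2 in libraries I to IV at 26 weeks, against 18.02, 18.6, 16.4 and 22.7 at 6 weeks. The 4 older libraries were close to each other and all lay below the 4 younger ones. The log2 difference was -0.74 (exact permutation p = 0.0286, the smallest possible, and 0.129 adjusted over the 9). The ratio to mir-26, which in mammals is known to repress the histone methyltransferase Ezh2, was 3.46, 3.84, 3.65 and 2.86 at 26 weeks, against 5.67, 5.13, 4.52 and 5.53 at 6 weeks. Here too each older library lay below each younger one, with a log2 difference of -0.60 (exact permutation p = 0.0286, and 0.129 adjusted over the 9). With TMM scaling, which put mir-181 at 0.00, nearly all of each difference fell on these families, which rose at 26 weeks. The log2 change was 0.74 ± 0.13 for mir-22 and 0.60 ± 0.13 for mir-26 (SE, edgeR, Benjamini-Hochberg adjusted p = 0.0109 and 0.0153). How the difference of a ratio divides between its families depends on the scaling. With total counts alone mir-181 itself was at -0.23 (edgeR). As mean shares of all counts, mir-22 held 2.22% at 26 weeks and 1.56% at 6 weeks, and mir-26 held 7.25% and 5.62%.

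The count model with mir-181 as the only scaling feature, in which a positive change is a rise of the other family against mir-181, called 22 of the 211 other features over all of them (10.4%), 18 higher and 4 lower at 26 weeks. Among the 9 abundant families, mir-22 rose by 0.73 ± 0.11 against mir-181 (SE, edgeR, Benjamini-Hochberg adjusted p = 0.00361 over all 211) and mir-26 by 0.60 ± 0.12 (adjusted p = 0.0119). In the same edgeR fit let-7 was at 0.59 ± 0.19 (Benjamini-Hochberg adjusted p = 0.0787 over all 211 and 0.0347 over the 9 abundant families alone). There lin-4 was at 0.27 ± 0.10 (edgeR, Benjamini-Hochberg adjusted p = 0.124 over all 211 and 0.0501 over the 9). The median log2 change of the 211 features against mir-181 was -0.05.

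The ratios of mir-181 to the remaining abundant families overlapped between the ages. The ratio to lin-4 averaged 9.25 ± 0.572 in the 26-week libraries and 11.2 ± 0.905 in the 6-week ones (SD, n = 4 each), lower at 26 weeks in 4 of 4 pairs (exact permutation p = 0.0571, adjusted p = 0.171). That to mir-221, a family of vessel wall and proliferating cells in mammals, averaged 6.74 ± 0.946 at 26 weeks and 7.59 ± 0.955 at 6 weeks (exact permutation adjusted p = 0.36, n = 4 each). For the neuronal family mir-128 the difference had the opposite sign, with a ratio of 4.96 ± 0.871 at 26 weeks and 4.40 ± 0.543 at 6 weeks (exact permutation adjusted p = 0.514, n = 4 each). For mir-9 the ratio was 3.93 ± 1.17 at 26 weeks and 3.93 ± 0.490 at 6 weeks, and for mir-724, a family described in fish, 12.7 ± 1.97 at 26 weeks and 11.8 ± 0.472 at 6 weeks (n = 4 each). The exact permutation adjusted p was 0.886 for mir-9 and 0.624 for mir-724. The ratio to mir-10, a family encoded among the Hox genes, spread most, from 7.83 to 21.0 at 26 weeks and from 8.77 to 16.5 at 6 weeks (exact permutation adjusted p = 0.886).

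**Figure D4:**
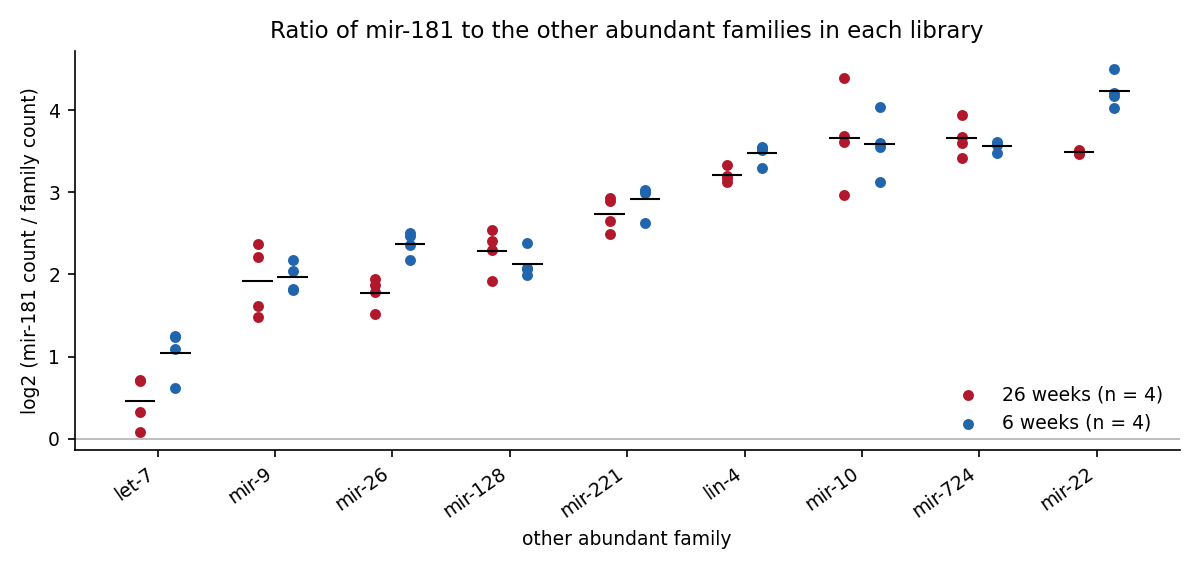
Log2 of the count of mir-181 over that of each of the other 9 abundant families in each library, with 26-week libraries left and 6-week libraries right in each pair and black lines at the means (n = 4 each). The ages do not overlap for mir-26 and mir-22, and the value for let-7 comes closest to 0, at 0.09 in library IV at 26 weeks.

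Within an age mir-181 was steadier than most features of at least 100 CPM. These include much scarcer features, which carry more counting error, and the abundant families were not ranked on their own. Its SD of log2 CPM between libraries of 1 age was 0.18, pooled over both ages. Among 94 features with a mean of at least 100 CPM this SD ran from 0.10 to 2.14 with a median of 0.27, and 26 features had a smaller one.

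The families whose pattern was most like that of mir-181 were found by the SD, over the 8 libraries, of the log2 ratio of mir-181 to the family, among 89 named families with a mean of at least 100 CPM. This SD had a median of 0.40. It was smallest for mir-21 (0.14), followed by mir-724 (0.16), mir-609 (0.17), mir-30 (0.17) and lin-4 (0.17). All 5 SDs draw on the same mir-181 counts, and they are a description of 8 libraries, with no test. The family mir-21 is abundant in many tissues and known for its response to injury and inflammation. The count of mir-181 was 19.1, 17.3, 16.4 and 14.9 times that of mir-21 in libraries I to IV at 26 weeks, against 17.7, 15.1, 14.5 and 15.98 times at 6 weeks, so the ages overlapped and the ratio stayed within 1.32-fold. For mir-30, a broadly expressed family, the ratio ran from 16.7 to 23.9 at 26 weeks and from 18.5 to 20.8 at 6 weeks. For mir-609 it ran from 653 to 855 at 26 weeks and from 622 to 817 at 6 weeks. With the age means removed, lin-4 and mir-21 stayed among the 5 closest families, and mir-25, mir-23 and mir-132b took the other places.

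The 3 families least like mir-181 were mir-375, mir-158 and mir-716, with SDs of 2.10, 1.64 and 1.48. Their ratios differed most between single libraries. The count of mir-181 was 564 times that of mir-158 in library I at 26 weeks, against 291 times in library I at 6 weeks, while the other libraries ran from 4287 to 6186 at 26 weeks and from 2731 to 4606 at 6 weeks. In each of the 4 pairs of the same number the ratio to mir-158 was higher at 26 weeks. With the number as a block mir-158 was called lower by edgeR, at -0.70 ± 0.19 on the log2 scale (SE, Benjamini-Hochberg adjusted p = 0.0361, against 0.568 without the block). That block was inferred from these same data and called 59 features (27.8%). It also takes out the spread of library I for which mir-158 was picked, so the call is not independent support for a fall. The ratio to mir-716 was also lowest in library I at each age, at 186 at 26 weeks and 162 at 6 weeks, and it too was higher at 26 weeks in each of the 4 pairs. For mir-375, a family of neuroendocrine and pancreatic islet cells, library I had the lowest ratio at 26 weeks, at 437, whereas at 6 weeks it had the highest, at 13028. In libraries II to IV the ratio to mir-375 was 2374, 12399 and 2939 at 26 weeks, against 601, 510 and 416 at 6 weeks. Over all 8 libraries the ages overlapped, and mir-375 was not called (-1.19 ± 1.03, SE, edgeR, Benjamini-Hochberg adjusted p = 0.487).

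**Figure D5:**
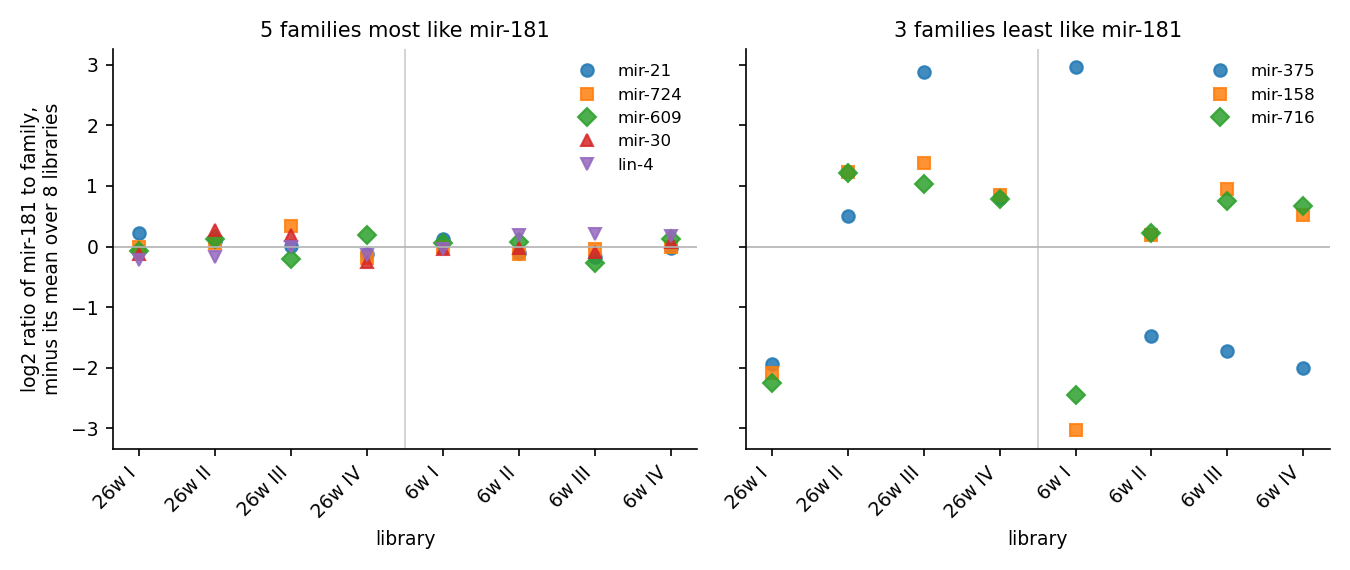
Log2 ratio of mir-181 to each family in each of the 8 libraries, minus that ratio's mean over the libraries. For the 5 families most like mir-181 the points stay near 0 (SD 0.14 to 0.17), whereas for the 3 least like it single libraries differ by up to 31.3-fold in the ratio.

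Other miRNAs known to act on the processes in which mir-181 is known were described as lists. The lists were chosen with earlier results of these data known. Their counts of calls and their medians, here and below, are therefore descriptions. Setting them beside those of all tested features is no test of a list. Of 9 tested features of the list on glutamate receptors and synaptic plasticity, 5 rose and 1 fell at 26 weeks, where 10.4% of all tested features rose and 3.77% fell. The median log2 change of the list was 0.54, against -0.06 over all 212 tested features. Those that rose included mir-132, which responds to neuronal activity, by 0.70 ± 0.14 (SE, edgeR, Benjamini-Hochberg adjusted p = 0.0126), and mir-124, which promotes neuronal identity, by 0.92 ± 0.21 (adjusted p = 0.0167). The others were mir-132b, which may share reads with mir-132, the oligodendrocyte family mir-219, and mir-223, which is also in the lymphoid and myeloid list. The 3 features not called all had negative changes: mir-92 at -0.31, mir-138 at -0.24 and mir-137 at -0.05 (edgeR, Benjamini-Hochberg adjusted p = 0.209, 0.221 and 0.845). The feature that fell was mir-186 (-1.43), named after its values were seen, a scarce family whose call was lost without any 1 of 7 of the 8 libraries (edgeR, Benjamini-Hochberg adjusted p from 0.0744 to 0.114). With upper-quartile factors mir-132, mir-132b and mir-124 lost their calls (edgeR, Benjamini-Hochberg adjusted p from 0.0503 to 0.0961), and with total counts alone mir-124, mir-219 and mir-223 did (adjusted p from 0.0575 to 0.0702). With the log2 total as a covariate mir-132, mir-132b, mir-124, mir-223 and mir-186 lost theirs (edgeR, Benjamini-Hochberg adjusted p from 0.0933 to 0.197) and mir-219 kept its call. The listed mir-134 and mir-501 were not analysed here.

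Of 7 tested families of the list on the Bcl-2 family and cell survival, 2 rose and 0 fell, where 10.4% of all tested features rose and 3.77% fell. The list's median log2 change was 0.30, against -0.06 over all tested features. The 2 were mir-29, which in mouse neurons represses cell death proteins of the BH3-only group, by 1.69 ± 0.15 (SE, edgeR, Benjamini-Hochberg adjusted p = 2.14e-04), and mir-101, known to target Mcl1 in human cells, by 1.57 ± 0.16 (adjusted p = 3.00e-04). Against them mir-181 was at 0.00 in the same fit. The other 5, mir-15, mir-16, mir-34, mir-153 and mir-204, ran from -0.23 for mir-16 to 0.34 for mir-204.

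Of 5 lymphoid and myeloid families, the cells in which mir-181 is best known in mammals, 3 rose and 0 fell, against 10.4% and 3.77% of all tested features. The list's median log2 change was 0.75, and that over all tested features -0.06. They were mir-142 of haematopoietic cells (0.75 ± 0.17), mir-223 of myeloid cells (1.06 ± 0.25) and mir-150 of lymphocytes (0.84 ± 0.23), with Benjamini-Hochberg adjusted p of 0.0179, 0.0205 and 0.0394 by edgeR. With total counts alone these 3 calls were lost, and that of mir-150 also with upper-quartile factors and without 1 of the 6-week libraries II, III and IV (adjusted p = 0.0693, 0.0716 and 0.0646 by edgeR with Benjamini-Hochberg adjustment). With the log2 total as a covariate the 3 were at 0.78, 1.27 and 0.94 and were not called (edgeR, Benjamini-Hochberg adjusted p = 0.102, 0.0933 and 0.138). The remaining members of the list, mir-155 and mir-146, were not called with TMM factors, at 0.45 ± 0.48 and -0.04 ± 0.33 (SE). Of these, mir-146 averaged 253 CPM at 26 weeks and 260 CPM at 6 weeks, and mir-155 was scarce, at 4.18 and 3.05 CPM. Some markers of other cell types also rose, and most lists of them did not. Of 2 erythroid markers mir-451 rose by 1.15 ± 0.17 (SE, edgeR, Benjamini-Hochberg adjusted p = 0.00326, and 0.0654 with the log2 total as a covariate) and mir-144 was at 0.06 ± 0.16. Both oligodendrocyte markers rose, mir-338 by 1.26 ± 0.12 and mir-219 by 1.39 ± 0.28 (SE, edgeR, Benjamini-Hochberg adjusted p = 2.79e-04 and 0.0126). Of 9 neuronal features 3 rose and 0 fell, with a median of 0.05. These were mir-124, mir-132 and mir-132b, already counted in the list on glutamate receptors and plasticity, with the limits given there. In the vessel wall list 0 were called by edgeR with TMM factors, though its median was 0.58 and 2 of 3 had an unadjusted p under 0.05. DESeq2 and limma-voom each called 1 of this list. With the number of the library as a block 2 of it rose, where 27.8% of all tested features were called. The muscle, liver, eye and ear, choroid plexus and pituitary lists also had 0 called by edgeR with TMM factors and no block. Summed, the 5 lymphoid and myeloid families held 487 to 909 CPM at 26 weeks and 471 to 565 CPM at 6 weeks, while mir-181 held 220342 CPM or more in every library. The part of blood cells and oligodendrocytes in the level of mir-181 was not tested. Of 6 features of the retina list, 0 passed edgeR's test after Benjamini-Hochberg adjustment, 1 had an unadjusted p under 0.05, DESeq2 and limma-voom also called 0, and the median was -0.24. The smallest p was that of mir-96a, a scarce family of sensory organs, at -0.95 ± 0.35 (edgeR, Benjamini-Hochberg adjusted p = 0.114). It averaged 7.25 CPM at 26 weeks and 14.0 CPM at 6 weeks. By edgeR it was called lower with the number of the library as a block (-1.002, adjusted p = 0.0407), a block inferred from these same data. It was also called lower by edgeR without the 26-week library I (-1.33, adjusted p = 0.0158) and without both libraries I (-1.29, adjusted p = 0.0189). Without any other single library it was not called (edgeR, Benjamini-Hochberg adjusted p from 0.169 to 0.419). Next by p was mir-204 of the pigment epithelium, at 0.34 ± 0.19 (edgeR, adjusted p = 0.2499).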

How the data were processed

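Per the labels' protocols, libraries were prepared from total RNA with Illumina's TruSeq kit for small RNA. The authors deposited raw counts, 1 whole number for each feature (a miRNA family or a predicted miRNA) in each library. The submitters' processing notes name SAMtools 1.3.1-9, BWA 0.7.12-r1039, Trimmomatic 0.36 and bcl2fastq 1.8.4. Genome build, annotation, counting method and the handling of multiply mapping reads: not given in the sources used here. Columns were matched to samples by title and grouped by the age label.

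Counts were tested in R 4.3.3 with edgeR 4.0.16 (quasi-likelihood, TMM, filterByExpr, 212 features kept, two-sided, Benjamini-Hochberg, threshold 0.05). SE is the absolute log2 change over the square root of the F statistic. The scripts were tested on simulated data. Shares, log ratios (0.5 added to counts for the geometric mean and the search for like families) and ratios were compared in Python 3.11.15 by exact two-sided permutation of the difference of means. Alternatives were other scalings, filters, DESeq2 1.42.0, limma-voom (limma 3.58.1), a block, a depth covariate and left-out libraries.

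The pairing by the numbers I to IV was inferred from these data. Deviations from the age means correlated by 0.287 to 0.528 across features for the same number and by at most 0.234 for different ones. What the numbers stand for is not known here. No 2 libraries of an age were near copies (chi-square per degree of freedom at least 130.8). Families named by rule were the 10 most abundant, the 5 most and 3 least like mir-181, and of each list the called members (up to 4) or the 2 with the smallest p. Families outside this rule were named too, among them other list members and markers. The part of that rule on shared seeds was not used here. The family, the lists and the rules were chosen with earlier results of these data known.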

Additional observations from a re-analysis of the deposited data

Results flagged for a closer look

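Among 48 groups of 4 libraries, 4 held a library set apart from the other 3 by more than Dixon's 95% critical value allows, and chance gives about 1 in 20 groups. The log2 ratio of mir-181 to mir-221 was 2.62 in the 6-week library III, whereas libraries I, II and IV of that age had 2.99 to 3.03. The log2 ratio of mir-181 to lin-4 was 3.29 in the 6-week library I, against 3.52 to 3.55 in the others of that age. At 26 weeks, library III had 13.41 for the log2 CPM of mir-124, where libraries I, II and IV had 12.58 to 12.65. At 6 weeks, library I had 5.48 for the log2 CPM of mir-150, a family of lymphocytes, where libraries II to IV had 4.78 to 4.89.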

How the results depend on the processing

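The share of mir-181 was lower at 26 weeks under all alternatives run, with p above the threshold throughout, though the pair test (smallest p 0.125) and the comparison without both libraries I (3 against 3, smallest p 0.1) cannot pass: -4.42 points among named families, -3.54 without let-7 and -5.14 to -3.39 without single libraries. The log2 change of mir-181 did not pass under any alternative, whether by edgeR, DESeq2 or limma-voom. By edgeR it turned negative with total counts alone (-0.23), upper-quartile factors (-0.16) and the log2 total count as a covariate (-0.22, Benjamini-Hochberg adjusted p = 0.390). It was also negative, by less than its SE, with a minimum of 10 CPM (-0.063), limma-voom (-0.0057) and the replicate block (-0.0073). Without single libraries it ran from -0.024 to 0.18, negative without the 6-week library I alone. Relative to the median of all features it was -0.27 with that covariate. The log2 ratio to the typical feature was -0.22 over the 50 most abundant features and -0.26 with the covariate, and 0.00 to 0.25 without single libraries. Of the 9 ratios to abundant families 3, those to mir-22, mir-26 and let-7, passed with mir-181 as the scaling feature in edgeR (Benjamini-Hochberg over the 9) and 0 with the pairing, whose smallest p of 0.125 cannot pass. Without single libraries the log2 ratio difference ran from -0.19 to 0.10 for mir-9, from -0.16 to 0.31 for mir-10 and from -0.0032 to 0.17 for mir-724. Features called numbered 59 with the replicate block, 4 with the covariate, 50 without both libraries I, and 23 to 47 without single libraries, the highest without the 26-week library I. Calls with total counts alone were 15 higher and 12 lower, those with upper-quartile factors 15 and 11, and those with TMM 22 and 8. Of the 5 families most like mir-181, 4 stayed with a minimum of 1000 CPM and 2 with the age means removed. The log2 change of mir-204 was -0.035 with the covariate. Of the other alternatives for families named from the lists, 226 left the call as it was, 33 lost it and 3 gained it. The causes of these shifts were not tested.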
